A study of Mus musculus with 24 samples.

Results

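At 96 h, the last time sampled, cells from intestinal tumours that had received diphtheria toxin (DT) were compared with cells from tumours that had received saline. The comparison uses the 8 libraries whose labels give that time, 4 DT and 4 saline, of 24 libraries in the series, and it runs across all genes. It describes the late state after depletion of Lgr5+ cells. Genes could be still lower or still higher, could have come back towards the saline level after a change at 24 h, or could be changed at 96 h without having been so at 24 h. The DT libraries of 24 h, with 4 saline libraries of their own time, serve to sort the genes of 96 h in this way. Those of 48 h, also with 4 saline libraries of their own time, are described beside them. All 24 libraries share an estimate of spread, so the libraries of 24 and 48 h also bear on the p-values at 96 h.

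Lgr5 is a receptor for R-spondins that raises Wnt signalling at the cell surface, and in the intestine it marks the stem cells at the crypt base. DT enters a cell through a surface receptor and stops protein synthesis by modifying elongation factor 2. Mouse cells bind the toxin poorly, so a design of this kind gives the cells to be removed a receptor for it, and saline animals serve as the control. Removal of a cell type can leave its transcripts low for as long as the cells are missing, while genes of division, inflammation or metabolism in the remaining cells may change for a shorter time.

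Every library came from mouse tumours recorded under small intestine with the genotype AKVPL, so the DT and the saline groups share that genotype, and they differ in what was given, DT or saline. The labels do not spell out the letters of the genotype, the route or dose of DT, or the way in which Lgr5+ cells were made sensitive to it. The sample names carry EpCAM, a surface protein of epithelial cells, the extraction protocol names flow sorting, and the sort is recorded as bulk. The labels do not give the gate, so it is not settled whether the cells were chosen for EpCAM. Nothing in the labels ties a library to an animal of its own, and the p-values cover the spread of these libraries only, which may be technical. In a bulk sample, fewer cells of a type and less RNA per cell cannot be told apart.

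The 96 h libraries held 11510459 to 24342953 counts in the DT group and 14401736 to 24202680 counts in the saline group. The first principal component of these 8 libraries carried 33.2% of their variance and placed the DT libraries at -22.2 to -10.8 and the saline libraries at 5 to 24.6. Saline replicate 1 was nearest to the DT libraries and stood apart on the second component (-34.5, against -9.8 to 22 for the other 7). Markers of epithelial identity summed to 8359 to 9196 counts per 1000000 counts of the library (CPM) in DT and 8770 to 9500 CPM in saline libraries, so epithelial transcripts were abundant in both groups. Fibroblast markers reached similar or higher levels, with sums of 6587 to 12000 CPM in DT and 3398 to 12340 CPM in saline libraries, and endothelial markers summed to 599.7 to 865.7 CPM in DT and 484.2 to 941.8 CPM in saline libraries. Macrophage and monocyte markers summed to 166 to 200.6 CPM in DT and 153.1 to 251.2 CPM in saline libraries, and neutrophil, T and NK cell and B and plasma cell markers to at most 6.37 CPM, with Retnlg, Cd8b1, Nkg7 and Ncr1 at 0 in all 8 libraries. The sums of every marker list overlapped between the groups, and no tested marker of the epithelial, fibroblast, endothelial, macrophage, neutrophil, T and NK or B and plasma cell lists passed the test at 96 h. Only 4 of 8 neutrophil, 2 of 14 T and NK cell and 1 of 7 B and plasma cell markers could be tested. Under 4 of 26 alternative analyses 1 T and NK cell marker was higher, and under 1 of them 1 epithelial marker was.

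Transcripts of Lgr5, the gene that marks the depleted cells, were still lower at 96 h. Lgr5 (chromosome 10, 115450314 to 115587780, GRCm38) had 125, 125, 135 and 123 CPM in DT libraries, against 170.2, 182, 152 and 181 CPM in saline libraries. No DT library reached the lowest saline library, and the means were 127 ± 5.35 CPM in DT and 171 ± 13.7 CPM in saline libraries (SD, n = 4 each). The log2 fold change was -0.43 ± 0.12 (SE; quasi-likelihood test of edgeR, p adjusted by Benjamini-Hochberg over all genes tested, adjusted p = 0.0447), beside -1.30 ± 0.12 at 24 h and -0.60 ± 0.12 at 48 h. The DT effect at 96 h was thus smaller than at 24 h by a difference of 0.86 ± 0.17, adjusted p = 0.00232. The call at 96 h sat at the threshold. It was lost without any single 96 h library, 24 h DT replicate 1 or 2 or 24 h saline replicate 1, 2, 3 or 4 and with median-of-ratios scaling, with upper quartile scaling, with the authors' size factors and without a low-count filter (adjusted p = 0.0508 to 0.152).

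Of 17468 genes tested, 528 were lower (3.02%) and 176 higher (1.01%) in DT than in saline libraries at 96 h at an adjusted p under 0.05. Of these, 162 of the lower and 13 of the higher genes differed by at least 2-fold, and in 618 of the 704 (4.03%) the DT and saline libraries did not overlap. Genes both called and without overlap made up 3.54% of those tested, and 11.6% of all genes did not overlap. Upper quartile scaling, which shifted the direction most among the 3 other scalings, gave 458 lower and 250 higher genes. The change was smaller than at 24 h, when 3296 genes were lower (18.9%) and 3469 higher (19.9%; 38.7% in all), and at 48 h, when 1135 were lower (6.5%) and 844 higher (4.83%). The median log2 fold change over all genes tested was -0.00591 at 96 h. Single libraries moved the number of calls: it was 296 lower and 63 higher without DT replicate 2, 290 and 72 without DT replicate 4, 529 and 299 without 48 h DT replicate 3, 302 and 69 without saline replicate 3, and 334 and 81 without saline replicate 4.

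Part of the genes fell into 6 patterns, defined by the calls at 24 h and at 96 h and by a direct test. That test asked for a change of the DT effect between these times. It was passed by 2079 genes (11.9%), 713 with a positive and 1366 with a negative change. There were 459 genes lower at both times, which are 86.9% of the genes lower at 96 h and 13.9% of those lower at 24 h. Another 144 genes were higher at both times, 81.8% of those higher at 96 h and 4.15% of those higher at 24 h. A return, meaning a call at 24 h, no call at 96 h and a changed effect, was found for 649 genes that had been lower and 1251 that had been higher. Newly lower genes, called at 96 h but not lower at 24 h and with a changed effect, numbered 27, and newly higher genes numbered 2. For 2188 genes lower at 24 h and 2069 higher at 24 h neither the 96 h comparison nor the change passed the test, so they can be assigned neither to the lasting nor to the returned genes. A further 42 genes lower and 30 higher at 96 h had not been so at 24 h. Their effect had no called change in that direction, so they can be assigned neither to the lasting nor to the new genes. The numbers rested on single libraries too. Without DT replicate 2, DT replicate 4, saline replicate 3 or saline replicate 4 the genes lower at both times numbered 268, 260, 275 and 300 and those higher at both times 53, 58, 56 and 72. Returned genes that had been lower numbered 980 without 24 h DT replicate 1, and returned genes that had been higher numbered 768, 803 and 793 without 24 h saline replicate 2, 3 or 4.

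**Figure D1:**
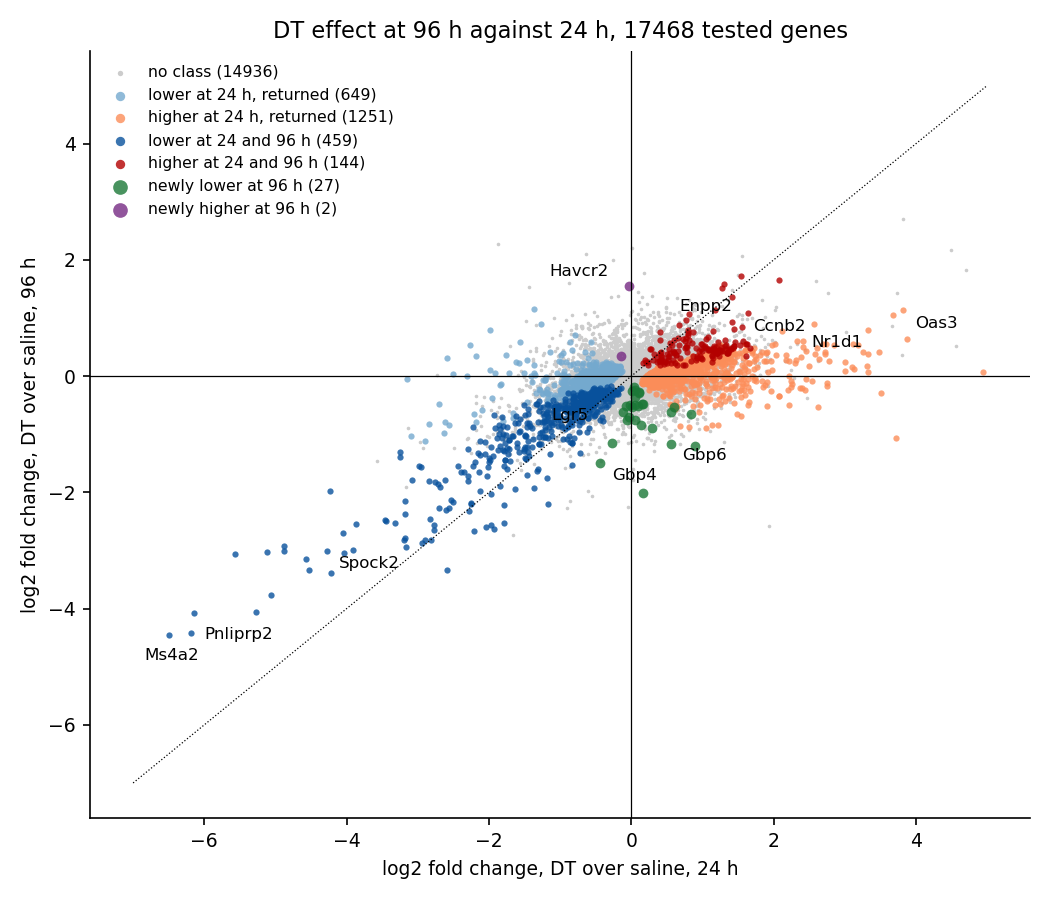
Log2 fold change of DT over saline at 96 h (vertical axis) against that at 24 h (horizontal axis), 1 point per tested gene, coloured by pattern, with the number of genes in each; the dotted line marks equal effects at both times. The 459 genes lower at both times form an arm towards the lower left that reaches Ms4a2 and Pnliprp2, whereas the 1251 genes that returned after being higher have a median of 0.56 at 24 h and 0.05 at 96 h, with Oas3 (3.87 at 24 h) among those farthest to the right. The patterns were defined by these same effects, which largely fixes where their genes lie.

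The genes changed at both times are described by their medians, without a test between the directions. The median log2 fold change of the genes lower at both times was -0.90 at 24 h, -0.62 at 48 h and -0.63 at 96 h, and 50 of the 459 had an effect that was smaller at 96 h than at 24 h by the direct test. The genes higher at both times had medians of 0.92, 0.40 and 0.45 at the same times, and 69 of the 144 had a smaller effect at 96 h. No gene of either group had a larger effect at 96 h by that test. Across all 3 times, 382 genes were lower and 89 higher.

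The genes with the largest decreases at 96 h had already been far lower in DT libraries at 24 h. Spock2, a secreted proteoglycan of the extracellular matrix, had 101, 74.3, 156 and 101 CPM in DT libraries, against 962, 661, 798 and 1054 CPM in saline libraries. The highest DT library was therefore far below the lowest saline library, and the mean was 8.06-fold higher in saline (log2 fold change -3.01 ± 0.45, adjusted p = 0.000517). Pnliprp2 and Pnliprp1 encode lipases related to pancreatic lipase and are neighbours on chromosome 19 (58759723 to 58777534 and 58728887 to 58744169, GRCm38). Pnliprp2 had 19.2, 8.94, 67.2 and 15.1 CPM in DT libraries, against 577, 354, 718 and 617 CPM in saline libraries. Pnliprp1 had 28.1, 21.7, 116 and 36 CPM in DT libraries, against 503, 269, 497 and 470.4 CPM in saline libraries. Neither gene overlapped between the groups (Pnliprp2 -4.41 ± 0.84, adjusted p = 0.00368; Pnliprp1 -3.14 ± 0.59, adjusted p = 0.00321). DT replicate 3 had the highest level of Spock2, Pnliprp1 and Pnliprp2 among the DT libraries. Both Pnliprp genes stand among 6 tested members of a list of pancreatic type digestive enzymes of which no other was called at 96 h, and the median of the list was 0.14.

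**Figure D2:**
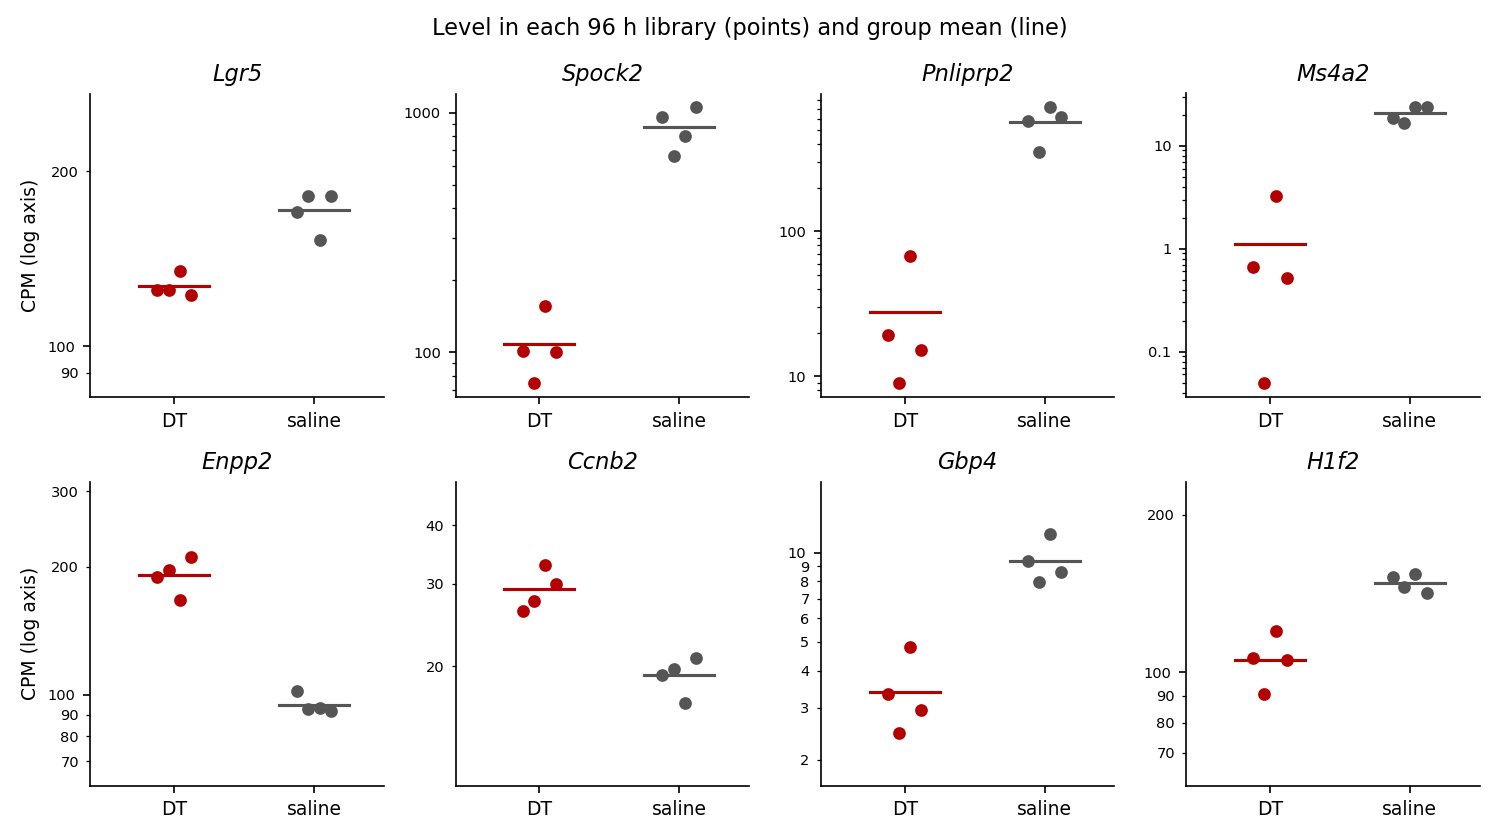
Level of 8 genes in each 96 h library (points, CPM on a log axis; each panel has its own scale) with the group mean (line), DT in red on the left and saline in grey on the right. The DT libraries lie below all saline libraries for Lgr5, Spock2, Pnliprp2, Ms4a2, Gbp4 and H1f2 and above them for Enpp2 and Ccnb2, and DT replicate 3 is the highest DT library of Spock2, Pnliprp2 and Ms4a2.

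Ms4a2, which encodes the beta subunit of the IgE receptor FceRI of mast cells, had the largest log2 fold change among the named lower genes, with 0.666, 0.0491, 3.25 and 0.513 CPM in DT libraries, against 18.6, 16.6, 23.6 and 23.6 CPM in saline libraries. For Ms4a2 the log2 fold change was -4.46 ± 0.72 (adjusted p = 0.000954). Tpsb2, a tryptase of mast cells, was lower as well (2.44 ± 1.24 CPM in DT and 15.9 ± 4.94 CPM in saline libraries; -2.79 ± 0.55, adjusted p = 0.00448). Gata2, a transcription factor of mast cells and their precursors, was the third lower member of the mast cell list of 10 tested genes (-0.85 ± 0.23, adjusted p = 0.0385). The Gata2 call was lost without DT replicate 1, 2, 3 or 4, saline replicate 1, 3 or 4 or 24 h saline replicate 2, 3 or 4 and without a low-count filter (adjusted p = 0.0524 to 0.14). The other 7 members did not pass, among them Kit, the receptor for stem cell factor, at 84.6 ± 21.6 CPM in DT and 60.5 ± 17.2 CPM in saline libraries (0.48 ± 0.30, adjusted p = 0.5). The summed level of the list's 12 markers was 106.6 to 148.7 CPM in DT and 105.3 to 170 CPM in saline libraries, so the groups overlapped in the sum. Kit was the most abundant marker, at a mean of 72.56 CPM over the 96 h libraries, so the sum rests largely on Kit and says little of Ms4a2 or Tpsb2. The part of mast cells in the fall of Ms4a2 was not tested.

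Mt4 and Mt3, metallothioneins that bind zinc and are neighbours on chromosome 8, were lower by a similar factor. Mt3 had 1.21, 1.82, 4.37 and 1.60 CPM in DT libraries, against 19.4, 11.1, 19.8 and 16 CPM in saline libraries. Mt3 had a log2 fold change of -2.99 ± 0.41 (adjusted p = 0.000282). Mt4 had 0.141 ± 0.144 CPM in DT and 2.21 ± 0.549 CPM in saline libraries (-4.06 ± 0.63). They were the 2 called members among 7 tested genes of metallothioneins and zinc handling, with a list median of -0.10. Snhg11, a long noncoding RNA that hosts small nucleolar RNAs, had 4.75, 2.11, 8.48 and 1.28 CPM in DT libraries, against 48, 27.2, 44.8 and 46 CPM in saline libraries. For Snhg11 the log2 fold change was -3.39 ± 0.54 (adjusted p = 0.000871). Slc4a5, a sodium bicarbonate cotransporter, averaged 2.02 ± 1.02 CPM in DT and 19.4 ± 3.45 CPM in saline libraries (-3.33 ± 0.54). C8b, a subunit of the complement membrane attack complex, averaged 0.786 ± 1.13 CPM in DT and 8.69 ± 2.88 CPM in saline libraries (-3.77 ± 0.62). Also lower, at low levels, were the zinc finger gene Zfp831 (-3.03 ± 0.47), Mat1a, which makes S-adenosylmethionine in liver (-3.01 ± 0.54), Cblif, the gastric intrinsic factor that carries vitamin B12 (-3.33 ± 0.54), and Ankfn1 (-3.04 ± 0.62). For all of these the 4 DT libraries lay below the 4 saline libraries, and none lost the call under any alternative tried. None of the 12 largest decreases, which are these genes without Mt3 and with Ms4a2, Spock2, Pnliprp1 and Pnliprp2, passed the test for a change of the effect between 24 h and 96 h; the differences ran from -0.74 for Cblif to 2.09 for Zfp831.

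The smallest p-values among the genes lower at both times belonged to moderately expressed genes with little spread. Slc6a9, a glycine transporter, had 60.0, 59.8, 69.5 and 64.5 CPM in DT libraries, against 155, 108, 136 and 146 CPM in saline libraries. Slc6a9 had a log2 fold change of -1.11 ± 0.12 (adjusted p = 2.54e-05). Lhx6, a LIM homeobox factor, had 10.6, 12.7, 12.7 and 8.34 CPM in DT and 28.2, 21.3, 24.3 and 28.6 CPM in saline libraries (-1.21 ± 0.13, adjusted p = 2.54e-05). Esyt3, an extended synaptotagmin that tethers the endoplasmic reticulum to the plasma membrane, had 80.6, 83.6, 72.9 and 84 CPM in DT and 219, 169, 195 and 228 CPM in saline libraries (-1.34 ± 0.16, adjusted p = 5.28e-05). In each of these the lowest saline library was well above the highest DT library. Proser2 (-1.03 ± 0.11), the small GTPase Arl4a (-0.76 ± 0.09), the potassium channel subunit Kcnmb4 (-1.21 ± 0.14), the pyridoxal kinase Pdxk (-0.44 ± 0.05), the ceramide synthase Cers5 (-0.51 ± 0.07) and the methionine sulfoxide reductase Msrb2 (-1.70 ± 0.22) were lower without overlap as well. Evx1os, which lies antisense to Evx1, was lower too (-1.97 ± 0.24), but use of strand in the counting is not given in the sources used here, so its reads and those of Evx1 cannot be told apart. Of these 10, Kcnmb4 was the one gene with a smaller effect at 96 h than at 24 h (difference 0.64 ± 0.20, adjusted p = 0.0437), and this change was lost without DT replicate 1, 2 or 4, saline replicate 1, 2, 3 or 4, 24 h DT replicate 1 or 3 or 24 h saline replicate 1 or 2 and without a low-count filter and with limma (adjusted p = 0.052 to 0.108).

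Several immediate early genes, which encode transcription factors switched on within minutes of a stimulus, were still lower at 96 h. Of 22 tested immediate early and heat shock genes, 8 were lower (36.4%, beside 3.02% of all genes) and none higher. The list median was -0.23, with 7 members above 0. At 24 h 17 were lower and none higher, beside 18.9% and 19.9% of all genes, with a median of -0.46. Fos had 1768, 1598, 1728 and 1694 CPM in DT libraries, against 2227, 2521, 2407 and 2307 CPM in saline libraries. For Fos the log2 fold change was -0.48 ± 0.07 (adjusted p = 0.000517). Fosb had 1064, 880.0, 1092 and 863 CPM in DT libraries, against 1439, 1661, 1579 and 1418 CPM in saline libraries. Fosb had a log2 fold change of -0.64 ± 0.11 (adjusted p = 0.00104). Atf3, a stress-responsive factor that also stands in the integrated stress response list, had 809 ± 73.5 CPM in DT and 1199 ± 34.2 CPM in saline libraries (-0.57 ± 0.09). Klf2 had 42.8 ± 5.14 CPM in DT and 83.6 ± 6.60 CPM in saline libraries (-0.96 ± 0.14). Jun had 1887 ± 79.7 CPM in DT and 2331 ± 143 CPM in saline libraries (-0.30 ± 0.07). The Jun call was lost without DT replicate 2 or saline replicate 3 (adjusted p = 0.0634 to 0.0753). None of these 5 genes overlapped between the groups, and none had a changed effect between 24 h and 96 h. Among the most abundant transcripts lower at 96 h were also Fth1, Aplp2 and Ctsd. Fth1, the heavy chain of the iron store ferritin, averaged 697 ± 68.2 CPM in DT and 1117 ± 119.8 CPM in saline libraries (-0.68 ± 0.12). Aplp2, a relative of the amyloid precursor protein, averaged 1163 ± 28 CPM in DT and 1665 ± 59.7 CPM in saline libraries (-0.52 ± 0.10). The lysosomal protease Ctsd averaged 1123 ± 80.8 CPM in DT and 1509 ± 90.7 CPM in saline libraries (-0.43 ± 0.10). The Ctsd call was lost without DT replicate 2 or saline replicate 3 (adjusted p = 0.0522 to 0.0608). Aplp2 had partly come back, with an effect smaller by 0.49 ± 0.14, adjusted p = 0.019.

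Among Wnt target genes, which rise where beta-catenin signalling is active, 8 of 23 tested were lower at 96 h (34.8%) and 1 was higher. Of all genes, 3.02% were lower and 1.01% higher. The list median was -0.22. At 24 h 13 were lower and 1 higher, beside 18.9% and 19.9% of all genes, with a median of -0.43. The lower members were Wif1, Bmp4, Sp5, Notum, Lef1, Nkd1, Lgr5 and Znrf3, at log2 fold changes of -1.45 to -0.38. Several of these encode inhibitors of Wnt signalling that the pathway itself induces. Wif1, a secreted antagonist of Wnt proteins, had 193, 173, 233 and 191 CPM in DT libraries, against 648, 389, 587 and 529.6 CPM in saline libraries. For Wif1 the log2 fold change was -1.45 ± 0.26 (adjusted p = 0.00185). Nkd1, an intracellular feedback inhibitor, had 672, 709, 679 and 767 CPM in DT libraries, against 1154, 829, 995 and 1026 CPM in saline libraries. Nkd1 had a log2 fold change of -0.50 ± 0.10 (adjusted p = 0.00459), with an effect smaller than at 24 h by 0.63 ± 0.14, adjusted p = 0.00593. Znrf3, a ubiquitin ligase that clears Wnt receptors from the surface, had 145 ± 4.89 CPM in DT and 189 ± 22.9 CPM in saline libraries (-0.38 ± 0.11, adjusted p = 0.0482). The Znrf3 call was lost without DT replicate 1, 2, 3 or 4, saline replicate 1, 3 or 4, 24 h DT replicate 1 or 2 or 24 h saline replicate 1, 2, 3 or 4 and with median-of-ratios scaling, with upper quartile scaling, with the authors' size factors, without a low-count filter, with a stricter filter and with limma (adjusted p = 0.0512 to 0.159). The higher member was Myc, a driver of growth and division, with 146, 164, 153 and 143 CPM in DT libraries, against 119.5, 117, 116 and 111 CPM in saline libraries. For Myc the log2 fold change was 0.38 ± 0.07 (adjusted p = 0.00153). Of 20 tested genes of the Lgr5+ stem cell list only Lgr5 and Znrf3, which are also in the Wnt list, were called at 96 h. The list median was -0.02. At 24 h 9 of the 20 were lower and 1 higher, beside 18.9% and 19.9% of all genes. The alternatives gave 0 to 2 lower and 0 or 1 higher genes at 96 h. The TCF/LEF letters CTTTGAT and CTTTGAA, on either strand, were present in 2 (11.8%) and 1 (5.88%) of 17 Wnt target promoters with a sequence, beside 4.29% and 5.93% of 27025 gene promoters (RefSeq, GRCm38.p6, 250 bases before to 50 after each gene start). The Wnt count fell to 5 lower genes without any DT replicate from 2 to 4 or without saline replicate 1 or 4, and was 9 by DESeq2; the count of higher genes was 2 by DESeq2, with median-of-ratios scaling, with the authors' size factors, with only the 96 h libraries and without 24 h DT replicate 1 or 48 h DT replicate 3.

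In some smaller groups a part of the members was called lower. Of 17 hypoxia and glycolysis genes 5 were called lower (29.4%, beside 3.02% of all genes), with a median of -0.33. All 17 lay below 0, at -0.76 to -0.16. At 24 h 13 had been lower, beside 18.9% of all genes. Hk2, a hexokinase, had 156, 161, 186 and 156 CPM in DT libraries, against 194, 226, 218 and 206 CPM in saline libraries. Hk2 had a log2 fold change of -0.36 ± 0.07 (adjusted p = 0.00459), without overlap. Vegfa, a growth factor for blood vessels, had 395, 375, 485 and 337 CPM in DT libraries, against 494, 681, 610.5 and 513 CPM in saline libraries. For Vegfa the log2 fold change was -0.53 ± 0.12 (adjusted p = 0.0125). Its groups did not overlap, and its call was lost without DT replicate 2 or 4 or saline replicate 3 and with only the 96 h libraries (adjusted p = 0.0521 to 0.0749). The glucose transporter Slc2a1 (-0.44 ± 0.11) and the oxygen-sensing prolyl hydroxylase Egln3 (-0.58 ± 0.15) overlapped between the groups. The Slc2a1 call was lost without DT replicate 2 or 4 or saline replicate 2 or 3 and with only the 96 h libraries (adjusted p = 0.0594 to 0.103). The Egln3 call was lost without DT replicate 1, 2 or 4 or saline replicate 2 or 3 and without a low-count filter and with only the 96 h libraries (adjusted p = 0.0515 to 0.12). The count of the list was 1 without DT replicate 2, DT replicate 4 or saline replicate 3 and with only the 96 h libraries. It was 3 without saline replicate 2 or a low-count filter, 8 without DT replicate 3 and 9 by DESeq2. Of 12 BMP and TGF-beta target genes 2 were called lower, Smad7 and Id4, beside 3.02% of all genes. The list median was -0.28, and all 12 lay below 0, at -0.79 to -0.13. Smad7, an inhibitory SMAD, had 95.7 ± 2.46 CPM in DT and 124 ± 6.89 CPM in saline libraries (-0.38 ± 0.07, adjusted p = 0.00196). Id4 is an inhibitor of helix-loop-helix factors (-0.79 ± 0.18). The Id4 call was lost without DT replicate 2 or 4 (adjusted p = 0.0526 to 0.056).

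Among 10 tested antimicrobial and oxidase genes 3 were lower at 96 h (30%, beside 3.02% of all genes), with a median of -0.58. At 24 h 5 were lower and 1 higher, beside 18.9% and 19.9% of all genes. Lcn2, a protein that withholds iron from bacteria by binding siderophores, had 186, 153, 149.6 and 155 CPM in DT libraries, against 226, 324, 276 and 278 CPM in saline libraries. Lcn2 had a log2 fold change of -0.78 ± 0.20 (adjusted p = 0.0296). Duox2, an oxidase that releases hydrogen peroxide at the epithelial surface, had 8.08, 3.88, 8.73 and 5.07 CPM in DT libraries, against 8.40, 13.4, 11.6 and 11.3 CPM in saline libraries. For Duox2 the log2 fold change was -0.80 ± 0.21 (adjusted p = 0.0329), with 1 DT library above the lowest saline library. Duoxa2, which Duox2 needs to mature, was lower too (-1.01 ± 0.27). The Lcn2 call was lost without DT replicate 2, 3 or 4 or saline replicate 2, 3 or 4 and without a low-count filter (adjusted p = 0.0694 to 0.0943). The Duox2 call was lost without DT replicate 2 or 4 or saline replicate 2, 3 or 4 and with only the 96 h libraries (adjusted p = 0.0789 to 0.135). The Duoxa2 call was lost without DT replicate 2 or 4 or saline replicate 2, 3 or 4 and with only the 96 h libraries (adjusted p = 0.0587 to 0.159). Without DT replicate 2 or 4 or saline replicate 2, 3 or 4 no member of the list was called. Of 7 goblet cell genes Fcgbp, a mucus component, was lower (179 ± 48.1 CPM in DT and 332 ± 77.1 CPM in saline libraries; -0.89 ± 0.23, adjusted p = 0.0311). The Fcgbp call was lost without DT replicate 1, 2 or 4 or saline replicate 1, 3 or 4 and without a low-count filter and with only the 96 h libraries (adjusted p = 0.0572 to 0.118). Muc2, the main mucin of goblet cells, had 0.999, 1.87, 3.60 and 1.09 CPM in DT and 3.60, 3.74, 1.78 and 5.33 CPM in saline libraries. It was not called at 96 h (-1.02 ± 0.45, adjusted p = 0.263) after a log2 fold change of -3.09 at 24 h, and its effect changed by 2.07 ± 0.64, adjusted p = 0.0374. The Muc2 change was lost without DT replicate 2 or 3, saline replicate 1, 2 or 3, 24 h DT replicate 1, 3 or 4 or 24 h saline replicate 2, 3 or 4 and without a low-count filter and with limma (adjusted p = 0.0506 to 0.18).

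What stayed higher was led by mitosis. Of 24 G2/M genes 18 were higher at 96 h (75%, beside 1.01% of all genes) and none lower, with a median of 0.45; the 24 members ran from 0.30 to 0.60. All 24 had been higher at 24 h, beside 19.9% of all genes, with a median of 1.28. The effect of 22 was smaller at 96 h by the direct test. Ccnb2, a B-type cyclin of mitotic entry, had 26.2, 27.6, 33 and 29.9 CPM in DT libraries, against 19.2, 19.8, 16.7 and 20.8 CPM in saline libraries. Ccnb2 had a log2 fold change of 0.60 ± 0.11 (adjusted p = 0.00153), and its effect changed by -0.96 ± 0.15, adjusted p = 0.000309 from 24 h. Cenpe, a kinetochore motor, had 31, 32.6, 34.1 and 32.5 CPM in DT libraries, against 21.1, 22.8, 16.3 and 26.1 CPM in saline libraries. For Cenpe the log2 fold change was 0.59 ± 0.11 (adjusted p = 0.00295); that its effect was smaller than at 24 h was lost without 24 h saline replicate 2 (adjusted p = 0.0506). Kif11, the motor that separates the spindle poles, had 26.9, 31.8, 33.2 and 27.5 CPM in DT libraries, against 20.4, 22.3, 19.5 and 25.2 CPM in saline libraries. Kif11 had a log2 fold change of 0.45 ± 0.09 (adjusted p = 0.00573). Kif23, a motor of cell division, had 39.5 ± 1.10 CPM in DT and 29.2 ± 4.22 CPM in saline libraries (0.44 ± 0.09). The DT libraries were above all saline libraries for each of these. The proliferation marker Mki67 was higher as well (159.9 ± 12 CPM in DT and 113 ± 22 CPM in saline libraries; 0.50 ± 0.12). So was the topoisomerase Top2a (155 ± 12 CPM in DT and 114 ± 17.4 CPM in saline libraries; 0.44 ± 0.10). Mki67 lost its call without DT replicate 2 or 3 or saline replicate 1 or 3 and with only the 96 h libraries (adjusted p = 0.0534 to 0.0855). Top2a lost its call with only the 96 h libraries (adjusted p = 0.0592).

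The count of higher G2/M genes depended on single libraries more than the direction did. It was 7 without DT replicate 2, 8 without DT replicate 4, 8 without saline replicate 1, 7 without saline replicate 3, and 11 without DT replicate 3 and with only the 96 h libraries. It was 12 without DT replicate 1 and 13 without saline replicate 4, and no member was lower in any of these. Of 27 S phase genes only Mcm2, a subunit of the replicative helicase, was called higher at 96 h, beside 1.01% of all genes. The members ran from -0.07 to 0.44 at 96 h, with 26 of them above 0. All 27 had been higher at 24 h, beside 19.9% of all genes. Mcm2 had 102, 111, 102 and 121 CPM in DT libraries, against 89.7, 86.5, 82.8 and 84.2 CPM in saline libraries. Its log2 fold change was 0.35 ± 0.08 (adjusted p = 0.0173). The median of the list was 0.22 at 96 h and 0.86 at 24 h, and the effect of 26 was smaller at 96 h. The count at 96 h was 0 without DT replicate 2 or 4 or saline replicate 3 or 4, and 2 without DT replicate 3, without saline replicate 1 or 2 or with a stricter filter. It was 3 by DESeq2, with upper quartile scaling, with only the 96 h libraries and without 24 h DT replicate 3 or 4 or 48 h DT replicate 3. E2F factors drive S phase genes, and their motif letters, TTTCCCGC and TTTGGCGC on either strand, were present in 3 (13.6%) and 5 (22.7%) of 22 S phase promoters, beside 1.24% and 0.585% of all promoters. The Mcm2 call was lost without DT replicate 2 or 4 or saline replicate 3 or 4 (adjusted p = 0.0519 to 0.0675). Knstrn, a spindle protein (0.52 ± 0.09), and Parpbp, a repair factor (0.68 ± 0.13), were also higher at both times and kept their 96 h calls under the alternatives tried.

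Some genes of biosynthesis were still called higher. At 24 h 19 of 19 ribosome biogenesis genes had been higher, beside 19.9% of all genes, with a median of 0.60. At 96 h 4 were higher (21.1%, beside 1.01% of all genes), and the list median was 0.19. These were Nop58, Wdr43, Nop56 and Nop2, factors of rRNA processing, at log2 fold changes of 0.19 to 0.26. All 19 members lay above 0, at 0.01 to 0.32. No member was called without DT replicate 2 or saline replicate 3 or 4 or without a low-count filter, 1 was called without DT replicate 3 or saline replicate 1, and 2 without DT replicate 1 or 4. Of 9 serine and one-carbon genes 3 were higher at 96 h, Shmt1, Mthfd1 and Psat1, beside 1.01% of all genes. At 24 h 7 were higher and 1 lower, beside 19.9% and 18.9% of all genes. Shmt1, a serine hydroxymethyltransferase, had 67.6 ± 6.58 CPM in DT and 53.7 ± 2.53 CPM in saline libraries (0.33 ± 0.08, adjusted p = 0.0143). The Shmt1 call was lost without DT replicate 2 or 4 (adjusted p = 0.0551 to 0.0647). None of the 3 was called without DT replicate 2 or 4, and 1 was without saline replicate 2, 3 or 4. Slc7a11, which imports cystine in exchange for glutamate, had 179.6, 208, 143 and 197 CPM in DT libraries, against 130.2, 114, 109.7 and 113 CPM in saline libraries. For Slc7a11 the log2 fold change was 0.64 ± 0.14 (adjusted p = 0.00943). Homer2, a scaffold protein of receptor complexes, had 143, 175, 168 and 177 CPM in DT libraries, against 119.6, 99, 109.9 and 99.95 CPM in saline libraries. Homer2 had a log2 fold change of 0.63 ± 0.12 (adjusted p = 0.00417). Hnf4a, a transcription factor of gut and liver epithelium, had 119 ± 7.19 CPM in DT and 90.1 ± 5.76 CPM in saline libraries (0.40 ± 0.07, adjusted p = 0.00194). The DT libraries of these last 3 genes lay above every saline library, and none of the 3 had a changed effect between 24 h and 96 h.

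The largest increases at 96 h were modest in size and mostly in low transcripts. Enpp2, which encodes autotaxin, the enzyme that makes lysophosphatidic acid, was the exception in level, with 189, 196, 167 and 210.4 CPM in DT libraries, against 102, 92.8, 93 and 92 CPM in saline libraries. Its mean was 2.01-fold higher in DT (log2 fold change 1.01 ± 0.20, adjusted p = 0.00489) and the groups did not overlap. At 24 h its effect was 0.50 ± 0.20 and did not pass (adjusted p = 0.0533). At 48 h it was 0.81 ± 0.20 (adjusted p = 0.0119). The change from 24 h to 96 h was not called (0.51 ± 0.28, adjusted p = 0.265), so it counts neither as lasting nor as new. The largest log2 fold change was that of Myh3, an embryonic myosin heavy chain, with 1.62, 1.82, 1.88 and 1.48 CPM in DT libraries, against 0.696, 0.513, 0.462 and 0.418 CPM in saline libraries. For Myh3 the log2 fold change was 1.66 ± 0.31 (adjusted p = 0.0024). Tas1r2, a subunit of the sweet taste receptor (1.52 ± 0.37), Smoc1, a secreted calcium-binding matrix protein (1.08 ± 0.27), and Kcnh2, a potassium channel (45.1 ± 4.68 CPM in DT and 25.5 ± 6.96 CPM in saline libraries; 0.81 ± 0.22), were among the other large increases. The Tas1r2 call was lost without DT replicate 4 or saline replicate 2 or 4 and with only the 96 h libraries (adjusted p = 0.0523 to 0.0798). The Smoc1 call was lost without DT replicate 1, 2 or 4 or saline replicate 1 or 4 (adjusted p = 0.0501 to 0.0878). The Kcnh2 call was lost without DT replicate 1, 2, 3 or 4 or saline replicate 2, 3 or 4 and without a low-count filter (adjusted p = 0.0571 to 0.118).

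By difference of means, Ank, which exports pyrophosphate, stood near the top of the higher genes (194 ± 20.9 CPM in DT and 141 ± 11 CPM in saline libraries; 0.46 ± 0.10, adjusted p = 0.00915). Hes1, a Notch-induced repressor of secretory fate, did so too (149.7 ± 11.3 CPM in DT and 111 ± 9.34 CPM in saline libraries; 0.42 ± 0.10, adjusted p = 0.0124). Hes1 was the 1 called member among 11 Notch pathway genes and lost the call without saline replicate 4 (adjusted p = 0.0575). Among 14 enteroendocrine genes only the gut hormone Pyy was called, with 7.20, 4.12, 9.42 and 7.19 CPM in DT libraries, against 3.81, 2.42, 4.15 and 2.35 CPM in saline libraries. Pyy had a log2 fold change of 1.11 ± 0.29 (adjusted p = 0.0302). Its groups overlapped, and the median of the list was 0.62. The Pyy call was lost without DT replicate 1, 3 or 4 or saline replicate 2 or 4 and with limma and with only the 96 h libraries (adjusted p = 0.0518 to 0.105). The tuft cell genes Gnat3 (0.72 ± 0.30) and Trpm5 (0.54 ± 0.24), which act in taste-like signalling, were not called (adjusted p = 0.225 and 0.258), and neither was any other of 14 tuft cell genes. Mpzl2, an adhesion protein of epithelia, had the smallest p among the genes higher at both times (116 ± 8.20 CPM in DT and 83.7 ± 6.39 CPM in saline libraries; 0.47 ± 0.08, adjusted p = 0.000964).

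**Figure D3:**
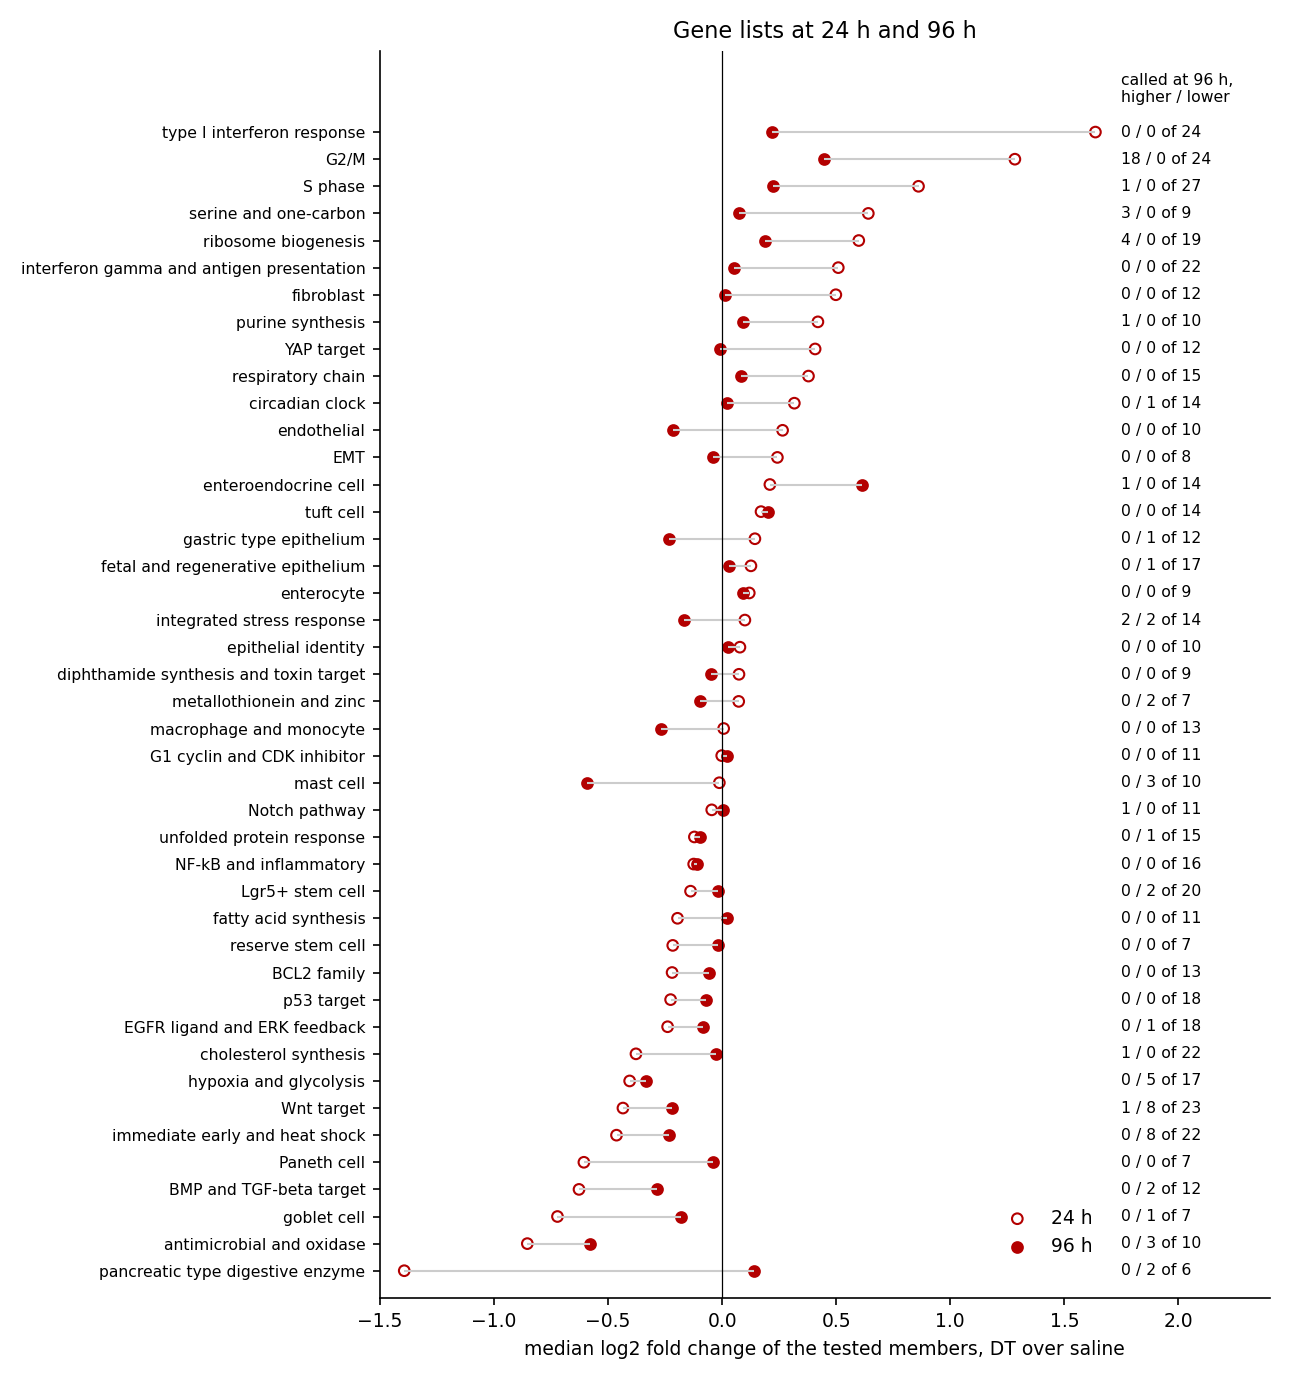
Median log2 fold change of DT over saline of the tested members of each gene list with at least 6 tested members, at 24 h (open circles) and 96 h (filled circles), ordered by the 24 h value; the numbers give the members called higher and lower at 96 h of those tested. The type I interferon list has the highest median at 24 h, 1.64, and a median of 0.22 at 96 h, and the G2/M list has the highest share of called members at 96 h, 18 of 24.

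Most type I interferon genes had come back towards the saline level. Interferons act through surface receptors and switch on genes that encode antiviral proteins. Of 24 type I interferon response genes 23 had been higher at 24 h, beside 19.9% of all genes, with a median of 1.64. At 96 h none was called in either direction, with a median of 0.22 and a range of -0.65 to 0.90. The effect of 23 changed downwards by the direct test, beside 7.82% of all genes. At 96 h the list held 2 higher genes and 1 lower gene by DESeq2, 2 higher genes without DT replicate 2, 2 lower genes without 24 h DT replicate 4, and at most 1 called gene under the other alternatives. Of 22 interferon gamma and antigen presentation genes 11 had been higher and 3 lower at 24 h, beside 19.9% and 18.9% of all genes. None was called at 96 h, and the effect of 10 had a negative change. In 16 of the 26 alternatives without a replicate block 1 member of that list was higher at 96 h. The interferon-stimulated response element, a promoter motif of this response, was searched on both strands of the same promoters as TTTC, any 2 bases and TTTC. It was present in 10 of the 16 type I interferon members with a promoter (62.5%), beside 3.99% of 27025 gene promoters, and in 70 of 967 returned genes that had been higher at 24 h (7.24%). The 150 bases before the start of 3 of these genes (RefSeq, GRCm38.p6) are shown because they hold the element and belong to the returned genes described next. Capitals mark the matched letters, which overlap within Isg15 and Bst2. All 3 genes lie on the minus strand and are written 5′ to 3′ in the direction of the gene.
Isg15, chr4:156200819-156200968: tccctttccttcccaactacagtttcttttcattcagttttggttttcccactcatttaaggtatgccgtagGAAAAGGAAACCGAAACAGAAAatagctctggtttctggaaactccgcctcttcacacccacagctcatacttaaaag
Oas3, chr5:120777660-120777809: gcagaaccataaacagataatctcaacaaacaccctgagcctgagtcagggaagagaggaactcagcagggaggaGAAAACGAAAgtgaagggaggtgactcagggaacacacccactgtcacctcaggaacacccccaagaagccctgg
Bst2, chr8:71537473-71537622: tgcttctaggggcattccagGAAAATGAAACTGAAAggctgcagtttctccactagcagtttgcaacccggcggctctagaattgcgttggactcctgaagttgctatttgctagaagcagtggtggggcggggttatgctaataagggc
The matched letters start 78, 75 and 130 bases before the start of Isg15, Oas3 and Bst2; a match describes the letters and not a bound site.

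Oas3, an oligoadenylate synthetase that senses double-stranded RNA, had 5.87, 2.75, 4.45 and 5.78 CPM in DT libraries, against 3.56, 1.90, 3.89 and 2.56 CPM in saline libraries at 96 h. These groups overlapped (log2 fold change 0.65 ± 0.24, adjusted p = 0.146). At 24 h the means were 30.9 ± 7.47 CPM in DT and 2.11 ± 0.6 CPM in saline libraries (3.87 ± 0.24), and the effect changed by -3.23 ± 0.34, adjusted p = 6.1e-06. Bst2, which tethers budding virus to the cell, had 32.7, 22.2, 26.8 and 36.2 CPM in DT libraries, against 18.3, 26.8, 28.3 and 23.3 CPM in saline libraries at 96 h. For Bst2 the log2 fold change was 0.30 ± 0.18 (adjusted p = 0.48). At 24 h Bst2 had 137 ± 28.8 CPM in DT and 22 ± 0.401 CPM in saline libraries, a change of -2.34 ± 0.25, adjusted p = 9.6e-06. Isg15, a ubiquitin-like modifier, had 13.2, 11.3, 14 and 14.1 CPM in DT libraries, against 13.7, 13.4, 19.1 and 12.5 CPM in saline libraries. Isg15 had a log2 fold change of -0.15 ± 0.17 (adjusted p = 0.767). At 24 h Isg15 had 54.2 ± 12.3 CPM in DT and 14.8 ± 2.30 CPM in saline libraries, a change of -2.03 ± 0.23, adjusted p = 1.31e-05. For all 3 genes at least 1 DT library of 96 h lay inside the saline range. Oas1a (0.55 ± 0.17), Oas1g (0.26 ± 0.18), Oas2 (0.90 ± 0.26) and Gbp3 (0.54 ± 0.16) had not passed at 96 h either (adjusted p = 0.0716, 0.586, 0.0593 and 0.0512). Some of these sat near the threshold. Gbp3 was higher at 96 h under 16 of these 26 alternatives (adjusted p = 0.0188 to 0.0484), Oas2 under 6 (0.00568 to 0.0463) and Oas1a under 3 (0.0276 to 0.0479). Oas3 was higher without DT replicate 2 (adjusted p = 0.0426). The Oas1 genes are near-identical copies, so their counts are uncertain. Usp18, which damps the interferon receptor, had a log2 fold change of -0.38 ± 0.12 at 96 h (adjusted p = 0.0767) after 1.10 ± 0.12 at 24 h. It was lower at 96 h without 24 h DT replicate 4 or saline replicate 2 (adjusted p = 0.0219 to 0.0396). B2m, the light chain of MHC class I, had 0.29 ± 0.14 at 96 h (adjusted p = 0.302) after 1.29 ± 0.14 at 24 h.

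Nr1d1, a repressor in the circadian clock, had the smallest p for a return among all the named genes, the interferon genes included. It had 60.9, 65.8, 77 and 52 CPM in DT libraries, against 42.9, 57, 56.1 and 48.3 CPM in saline libraries at 96 h. For Nr1d1 the log2 fold change was 0.33 ± 0.11 (adjusted p = 0.12), and it passed without DT replicate 4 (adjusted p = 0.0452). At 24 h Nr1d1 had 254 ± 18.1 CPM in DT and 48.8 ± 2.33 CPM in saline libraries (2.38 ± 0.12), a change of -2.06 ± 0.16, adjusted p = 1.16e-07. Its DT effect was 1.33 ± 0.11 at 48 h, and it was the 1 gene of 17468 (0.00572%) with an effect that differed between 48 h and 96 h (-1.0 ± 0.16, adjusted p = 0.0357). At an unadjusted p under 0.05, 1057 genes differed between these times; DESeq2 called 6 genes and limma 1. The number was 2 without DT replicate 3, and it was 0 without DT replicate 1, 2 or 4, saline replicate 2, 3 or 4, 24 h DT replicate 1 or 2 or any 24 h saline replicate. Ppp1r10, a regulatory subunit of protein phosphatase 1 in the nucleus, had 0.15 ± 0.09 at 96 h after 1.41 ± 0.09 at 24 h, and Pnpt1, a mitochondrial RNA exonuclease, had 0.12 ± 0.06 at 96 h after 0.80 ± 0.06. The median of the 1251 returned genes of this kind was 0.56 at 24 h, 0.22 at 48 h and 0.05 at 96 h. The values at 24 h and 96 h are largely fixed by the definition of a return.

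Of genes that had been lower at 24 h, Ltbp4, a matrix protein that binds latent TGF-beta, showed the smallest p for a return. It had 646, 668, 506 and 696 CPM in DT libraries, against 549.8, 635, 576 and 596 CPM in saline libraries at 96 h, with overlap (log2 fold change 0.09 ± 0.08, adjusted p = 0.677). At 24 h Ltbp4 had 293 ± 28.9 CPM in DT and 563 ± 25.5 CPM in saline libraries, a change of 1.04 ± 0.12, adjusted p = 9.6e-06. Cfi, complement factor I, had 428 ± 41.1 CPM in DT and 452 ± 26.2 CPM in saline libraries at 96 h (-0.08 ± 0.09) after -0.93 ± 0.09 at 24 h. Cdkn1c, an inhibitor of cyclin-dependent kinases, had 50.8, 64, 51.7 and 52.9 CPM in DT libraries, against 72.8, 62.3, 67.6 and 67.4 CPM in saline libraries at 96 h. DT replicate 2 was above the lowest saline library (log2 fold change -0.30 ± 0.10, adjusted p = 0.108), and the effect of Cdkn1c changed by 0.94 ± 0.14, adjusted p = 0.000275. Sterol genes were among the returned genes. Of 22 cholesterol synthesis genes 17 had been lower at 24 h, beside 18.9% of all genes, and none was at 96 h. The medians were -0.38 and -0.03. The effect of 10 changed upwards by the direct test, beside 4.08% of all genes. Cyp51, a sterol demethylase, had 0.06 ± 0.06 at 96 h after -0.57 ± 0.06 at 24 h, and Insig1, which restrains sterol synthesis when sterol is plentiful, had -0.17 ± 0.07 after -0.92 ± 0.08. The same holds for the chaperone Hspa2 (-0.23 ± 0.08 after -0.97 ± 0.08) and the autophagy receptor Calcoco1 (-0.04 ± 0.07 after -0.69 ± 0.07). Further returned genes were the mitochondrial carrier Slc25a23 (-0.16 ± 0.07 after -0.82 ± 0.07), the co-repressor Tle2 (-0.28 ± 0.10 after -1.19 ± 0.11) and the fatty acid transporter Slc27a1 (-0.14 ± 0.07 after -0.76 ± 0.07). The median of the 649 genes was -0.51 at 24 h, -0.22 at 48 h and -0.03 at 96 h, where the definition largely fixes the first and the last. A missing call at 96 h does not show that the level was the same as in saline.

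Newly lower genes came in part from gene families that lie side by side. Gbp4, Gbp6 and Gbp9 encode guanylate-binding proteins, GTPases of the defence against microbes that interferon gamma induces, and lie within chromosome 5, 105076464 to 105295871 (GRCm38). Gbp4 had 3.33, 2.46, 4.79 and 2.95 CPM in DT libraries, against 9.34, 7.98, 11.5 and 8.62 CPM in saline libraries. Gbp4 had a log2 fold change of -1.49 ± 0.22 (adjusted p = 0.000423). Gbp9 had 12.2, 10.5, 14 and 12.6 CPM in DT libraries, against 20.3, 20.8, 23.1 and 23.8 CPM in saline libraries. For Gbp9 the log2 fold change was -0.84 ± 0.15 (adjusted p = 0.00139). Gbp6 had 1.61 ± 0.369 CPM in DT and 3.53 ± 0.682 CPM in saline libraries (-1.16 ± 0.20, adjusted p = 0.00125). The DT libraries lay below all saline libraries in each of the 3, and at 24 h the effects were -0.44, 0.14 and 0.56, the last of them higher in DT (adjusted p = 0.0237). The lower level was in place at 48 h, at -1.27, -0.78 and -0.95. These genes are close copies of each other, and the counts hold uniquely aligned reads only, so reads that they share may be missing.

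Histone genes made up a further group of the newly lower genes, and the 4 named here lie on chromosome 13. H1f2, a linker histone, had 106, 90.9, 119.6 and 105 CPM in DT libraries, against 152, 145, 154 and 142 CPM in saline libraries. H1f2 had a log2 fold change of -0.49 ± 0.08 (adjusted p = 0.000511), after -0.01 ± 0.08 at 24 h. The linker histone H1f3 had 3.81 ± 0.803 CPM in DT and 7.06 ± 0.91 CPM in saline libraries (-0.90 ± 0.16, adjusted p = 0.0016). H1f4, another linker histone, had 3.11 ± 0.655 CPM in DT and 6.83 ± 0.382 CPM in saline libraries (-1.15 ± 0.21, adjusted p = 0.0016). The core histone H2ac6 had 2.61 ± 0.446 CPM in DT and 4.38 ± 0.497 CPM in saline libraries (-0.76 ± 0.13, adjusted p = 0.0015). None of these 4 overlapped between the groups. Their mRNAs mostly lack the poly(A) tail on which the libraries depend, and the copies are near-identical, so the levels are uncertain. Stard13, a GTPase-activating protein, had 36.5, 36.8, 40.5 and 37.2 CPM in DT libraries, against 65, 58.2, 61.7 and 58.9 CPM in saline libraries. For Stard13 the log2 fold change was -0.69 ± 0.11 (adjusted p = 0.000745) after -0.04 ± 0.11 at 24 h. The homeobox factor Pbx3 was newly lower too (14.3 ± 0.782 CPM in DT and 20.4 ± 1.30 CPM in saline libraries; -0.51 ± 0.09), as was the ligand Bmp4 (11 ± 1.26 CPM in DT and 18.5 ± 3.85 CPM in saline libraries; -0.76 ± 0.14). All of these kept their call at 96 h under the alternatives tried. The changes from 24 h were less firm. The change of Gbp4 was lost without DT replicate 1, 2 or 4, saline replicate 3, 24 h DT replicate 2 or 24 h saline replicate 1 or 4 (adjusted p = 0.0504 to 0.0754). The change of H1f4 was lost without DT replicate 1, 2 or 4, saline replicate 1, 2, 3 or 4, 24 h DT replicate 1, 2 or 4 or 24 h saline replicate 1, 2, 3 or 4 and with median-of-ratios scaling, with upper quartile scaling and with the authors' size factors (adjusted p = 0.0513 to 0.125). That of Pbx3 was lost without DT replicate 1, 2, 3 or 4, saline replicate 2, 3 or 4, 24 h DT replicate 2 or 3, 24 h saline replicate 1, 2, 3 or 4 or 48 h DT replicate 3 (adjusted p = 0.0517 to 0.112), and that of Bmp4 without DT replicate 3, saline replicate 3 or 24 h saline replicate 2 or 3 (adjusted p = 0.0539 to 0.0613). The number of newly lower genes was 13 without DT replicate 2, 17 without DT replicate 3, 15 without DT replicate 4, 11 without saline replicate 3 and 15 without saline replicate 4, and 11, 15, 14 and 13 without 24 h saline replicates 1 to 4. Of the 27 newly lower genes, 5 had been higher at 24 h, among them Gbp6 (0.56 at 24 h and -1.16 at 96 h), Phf11d (0.60 and -0.54), H4c9 (0.85 and -0.66) and Gm20627 (0.90 and -1.21); apart from Gbp6 they were named after their values were seen. No gene had changed from lower at 24 h to higher at 96 h.

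Only 2 genes were newly higher by this definition, and 30 others higher at 96 h could be called neither lasting nor new. Clcn2, a chloride channel of epithelia, had 98.7, 98.6, 96.1 and 93.5 CPM in DT libraries, against 79.5, 72.1, 74.3 and 77.7 CPM in saline libraries. Clcn2 had a log2 fold change of 0.35 ± 0.10 (adjusted p = 0.0451), without overlap, after -0.15 ± 0.10 at 24 h, a change of 0.50 ± 0.14, adjusted p = 0.021. Havcr2, which encodes the immune checkpoint receptor TIM-3, had 1.21, 2.90, 2.05 and 1.09 CPM in DT libraries, against 0.369, 0.659, 0.528 and 0.94 CPM in saline libraries. For Havcr2 the log2 fold change was 1.54 ± 0.34 (adjusted p = 0.00937) after -0.03 ± 0.31 at 24 h, a change of 1.58 ± 0.46, adjusted p = 0.0274. Havcr2 was low in both groups, and 1 of its DT libraries was only just above the highest saline library. The Clcn2 call was lost without any single 96 h library or 24 h DT replicate 2 (adjusted p = 0.0531 to 0.116). The Havcr2 call was lost without DT replicate 2 and with only the 96 h libraries (adjusted p = 0.0606 to 0.0756), and its change from 24 h was lost without DT replicate 2 or saline replicate 1 (adjusted p = 0.0667 to 0.0859). The number of newly higher genes was 4 with median-of-ratios scaling, 5 with upper quartile scaling and 14 by DESeq2. It was 0 without DT replicate 2 and 1 without DT replicate 1, saline replicate 4 or 24 h DT replicate 2. It was 6 without 24 h saline replicate 1 or 3, 7 without 24 h DT replicate 1 or 4 or 24 h saline replicate 2 or 4, 9 without DT replicate 3 and 13 without 48 h DT replicate 3.

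**Figure D4:**
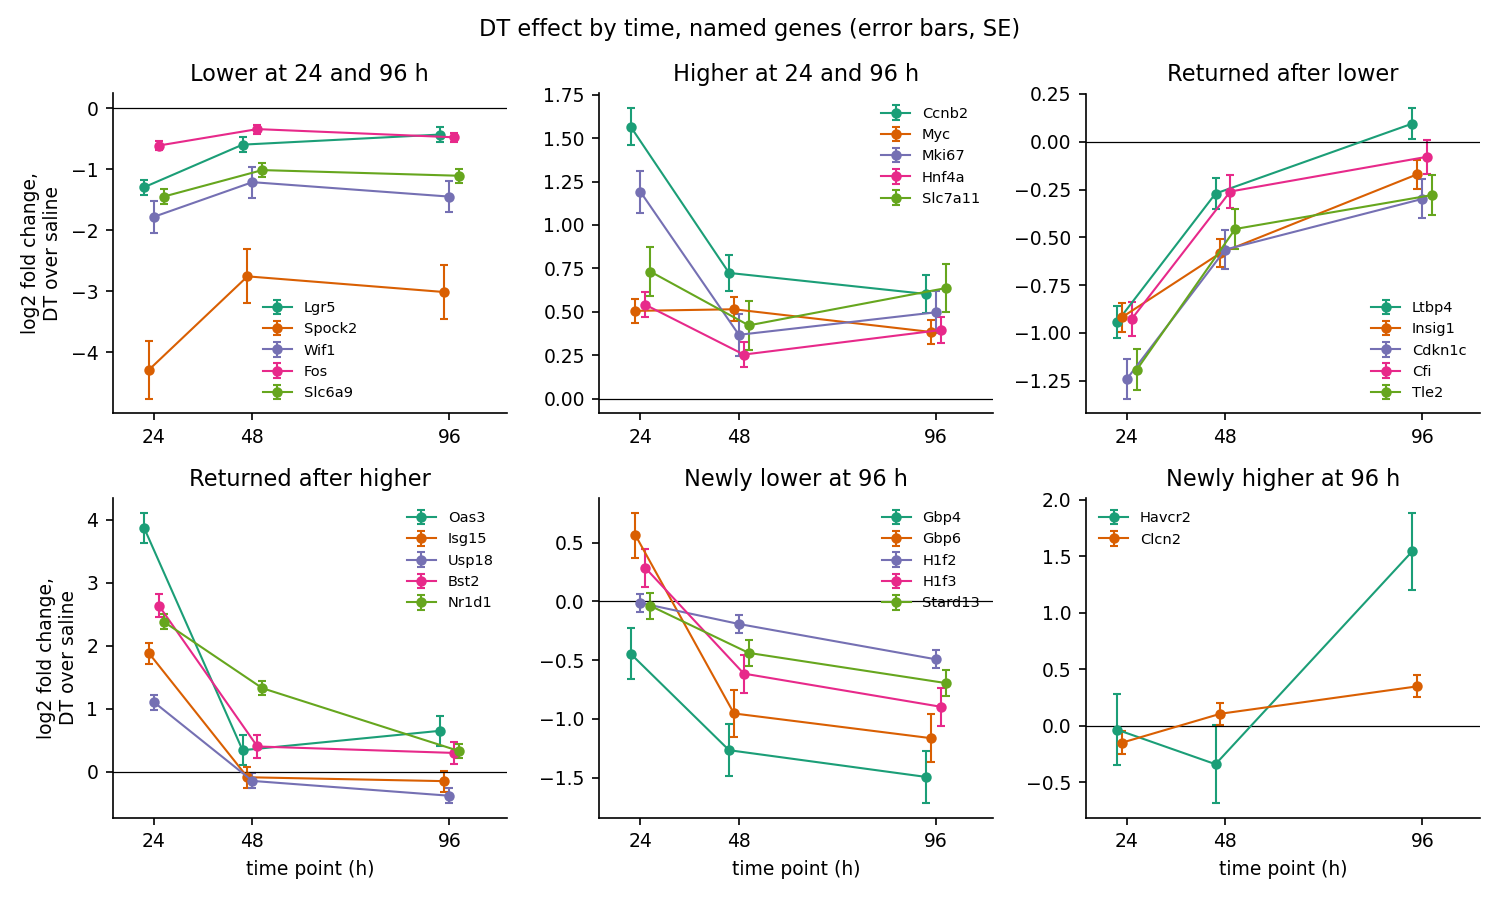
DT effect (log2 fold change of DT over saline, points, with SE as error bars) at 24, 48 and 96 h for named genes of each of the 6 patterns; the panels have their own vertical scales and the points of a time are set apart sideways. The returned genes lie nearer to 0 at 96 h than at 24 h, which the definition of a return largely fixes. Gbp4, Gbp6 and H1f3 are below 0 at 48 h and 96 h, and Havcr2 is above 0 at 96 h alone.

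No member was called at 96 h among the tested genes of the lists for reserve stem cells (7 genes), YAP targets (12), G1 cyclins and CDK inhibitors (11), enterocytes (9), Paneth cells (7), NF-kB and inflammation (16), p53 targets (18), the BCL2 family (13), fatty acid synthesis (11), the respiratory chain (15), diphthamide synthesis and the toxin's target (9) and epithelial-mesenchymal transition (8). Under at least 1 of the 26 alternatives, 1 or 2 members of the YAP, enterocyte, Paneth, NF-kB, p53, BCL2 or fatty acid lists were called. At 24 h 13 of 15 respiratory chain genes had been higher and 8 of 18 p53 targets lower, beside 19.9% and 18.9% of all genes. Their medians at 96 h were 0.08 and -0.07. Of 14 integrated stress response genes Slc7a11 and Psat1 were higher and Atf3 and Nupr1 lower. Xbp1, a factor of the unfolded protein response, was the 1 lower gene among 15 of its list, Tgfa, an EGFR ligand, among 18 of its list, and Cry2, a clock repressor, among 14 of the circadian list. The calls of Nupr1, Xbp1, Tgfa, Cry2, Psat1, Mthfd1, Nop2, Nop56, Nop58 and Wdr43 were each lost without DT replicate 2 and under 5 to 19 alternatives in all. Ctse, an aspartic protease in the gastric and the fetal lists, was the single called member of both (-0.47 ± 0.10, adjusted p = 0.00915). The Ctse call was lost without DT replicate 3 (adjusted p = 0.0545). Atic, an enzyme of purine synthesis, was the called member of its list of 10 (0.23 ± 0.06, adjusted p = 0.0266). The Atic call was lost without DT replicate 2 or 4 or saline replicate 1, 3 or 4 and without a low-count filter (adjusted p = 0.0516 to 0.0967).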

How the data were processed

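Polyadenylated RNA from flow-sorted cells, per the labels' protocols, was sequenced in 24 libraries, 4 each for DT and saline at 24, 48 and 96 h, and the 8 libraries of 96 h carry the comparison. The deposited counts are raw numbers of uniquely aligned reads for each gene, 1 library per file, per the file headers. The deposited RPKM values were divided by a size factor by the authors, per the file headers, and served only to recover those factors for an alternative scaling (11928 genes with at least 50 counts, largest relative deviation 7.5e-15). GSNAP and the build GRCm38 are named in the submitters' processing notes. Versions, annotation and strandedness: not given in the sources used here. Among 36528 gene rows, 31049 IDs matched a RefSeq gene (85.0%), and the 5479 others held 1.29% to 1.52% of the counts.

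Counts of all 24 libraries were fitted with edgeR 4.0.16 in R 4.3.3 (quasi-likelihood, robust, TMM scaling, default low-count filter, a mean per group, 18 residual degrees of freedom, common coefficient of biological variation 0.120). It tested 17468 genes; 19060 were not tested. Contrasts were DT minus saline at each time and the difference of that effect between 96 h and 24 h or 48 h, 2-sided, with Benjamini-Hochberg adjustment over all genes tested and a threshold of 0.05. The 3 times have saline groups of their own. CPM values use TMM-scaled library sizes. The same edgeR steps were tested on simulated data. Alternatives were DESeq2 1.42.0, limma 3.58.1, 3 other scalings, 2 other filters, non-robust dispersion, only the 96 h libraries, a replicate block and each 24 h or 96 h library left out; without 48 h DT replicate 3 was added after seeing the data. For DESeq2, genes with no adjusted p were left out.

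Genes were named by rule: Lgr5; the 12 largest log2 fold changes each way among called genes with at least 1 CPM and no overlap; the 10 largest differences of mean CPM each way; up to 4 members of each of 46 gene lists by p; and 10 genes of each pattern by p, with provisional symbols passed over. The lists, the patterns and the genes were chosen with earlier results of these data known. List members were not tested as sets. Some genes that the rule picked are not reported here. Replicates of 96 h differed beyond sampling noise (chi-square of at least 4.97 per degree of freedom), and each was kept as a sample of its own. At depths of 11510459 to 24342953 counts per library at 96 h, the values of genes near 1 CPM rest on few reads.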

Additional observations from a re-analysis of the deposited data

Results flagged for a closer look

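In 17 of 240 groups of 4 libraries (the DT and saline groups of 96 h for each of 120 named genes), 1 library stood apart from the other 3 by Dixon's test; chance alone gives about 1 in 20 groups. For DT replicate 1 this was Lcn2 at 186 CPM. For DT replicate 2 this was Cdkn1c at 64.0 CPM. For DT replicate 3 these were C8b at 2.48 CPM, Cblif at 0.856 CPM, Pnliprp1 at 116 CPM, Mat1a at 1.03 CPM, Hes1 at 167 CPM, Fth1 at 799 CPM, Cry2 at 44.3 CPM, Kit at 117 CPM and Stard13 at 40.5 CPM. For DT replicate 4 this was Klf2 at 35.2 CPM. For saline replicate 1 this was Enpp2 at 102 CPM. For saline replicate 2 these were Snhg11 at 27.2 CPM and Pnliprp1 at 269 CPM. For saline replicate 3 these were Cblif at 6.26 CPM and Xbp1 at 293 CPM. 

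The DT effect differed between 96 h and 24 h, by edgeR's interaction test at an adjusted p under 0.05, for 2079 genes. Among the named genes the difference (log2, 96 h minus 24 h) was positive for Muc2 2.07, Havcr2 1.58, Ltbp4 1.04, Fcgbp 1.03, Cdkn1c 0.94, Tle2 0.91, Lgr5 0.86, Cfi 0.85, Insig1 0.75, Hspa2 0.74, Slc25a23 0.66, Calcoco1 0.65, Kcnmb4 0.64, Nkd1 0.63, Cyp51 0.63, Slc27a1 0.61, Vegfa 0.55, Clcn2 0.50 and Aplp2 0.49. It was negative for Oas3 (-3.23), Oas1g (-2.52), Bst2 (-2.34), Oas1a (-2.15), Nr1d1 (-2.06), Isg15 (-2.03), Gbp6 (-1.73), Oas2 (-1.68), Usp18 (-1.49), Gbp3 (-1.44), Ppp1r10 (-1.26), H1f3 (-1.18), Gbp4 (-1.05), B2m (-1.0), Gbp9 (-0.99), Ccnb2 (-0.96), Nop56 (-0.89) and H1f4 (-0.87). Smaller negative differences were found for Psat1 (-0.87), Kif23 (-0.84), H2ac6 (-0.81), Top2a (-0.81), Kif11 (-0.78), Bmp4 (-0.70), Mki67 (-0.69), Pnpt1 (-0.68), Stard13 (-0.66), Cenpe (-0.63), Mthfd1 (-0.61), Nop2 (-0.58), Knstrn (-0.52), Wdr43 (-0.52), Mcm2 (-0.51), H1f2 (-0.48), Nop58 (-0.45), Pbx3 (-0.44) and Atic (-0.39). Between 96 h and 48 h the effect differed for Nr1d1 (-1.0). The difference of Fcgbp was lost under 10 of 25 alternatives other than the replicate block (adjusted p = 0.0542 to 0.101), that of Vegfa under 7 (adjusted p = 0.0515 to 0.0881) and that of Knstrn under 2 (adjusted p = 0.0538 to 0.0563).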

How the results depend on the processing

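Of 150 called values of named genes (log2 fold changes at 96 h and changes from 24 h), 103 stayed called under every alternative other than the replicate block, 47 were lost under at least 1, and none reversed. Under the replicate block 40 of the 150 were lost. Single libraries had the largest part in this, with 37 values lost without DT replicate 2, 33 without saline replicate 3 and 32 without DT replicate 4. Leaving out each 24 h or 96 h library in turn gave 63 to 234 higher and 290 to 586 lower genes at 96 h, 1577 to 2369 genes with a changed effect, 260 to 501 lower and 53 to 176 higher at both times, 471 to 980 returned after being lower and 768 to 1362 after being higher, 0 to 9 newly higher and 11 to 29 newly lower genes, and 0 to 2 genes with a change from 48 h. The Lgr5 effect ran from -0.47 to -0.40 in these fits (adjusted p = 0.0464 to 0.152). Its call was also lost with median-of-ratios scaling (-0.42), upper quartile scaling (-0.41), the authors' size factors (-0.42) and without a low-count filter (-0.42), at adjusted p = 0.0545 to 0.0655, and was kept with only the 96 h libraries (adjusted p = 0.00547).

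Newly higher genes numbered 4 with median-of-ratios scaling, 5 with upper quartile scaling, 4 with a stricter filter, 14 by DESeq2 and 13 without 48 h DT replicate 3. DESeq2 also called 307 higher genes, 232 of them higher at both times, and 6 with a change from 48 h. Without 48 h DT replicate 3 there were 299 higher genes and 234 higher at both times. Without a low-count filter 366 genes had returned after being lower. The share of higher among called genes was 25% in the reported fit, 29.6% with median-of-ratios scaling, 35.3% with upper quartile scaling and 29.2% with the authors' size factors.

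Replicate numbers gave no sign of a pairing of the samples. The deviations of log2 CPM from the group mean were correlated between same-numbered DT and saline libraries. These correlations of deviations were -0.47 to 0.14 at 96 h and -0.42 to 0.15 at 24 h. With the number as a replicate block there were 36 higher and 265 lower genes, 1014 with a changed effect, 240 lower and 27 higher at both times, 282 returned after being lower and 690 after being higher, and 9 newly lower, and Lgr5 stood at -0.43 (adjusted p = 0.152). The block left 6 higher G2/M genes and 0 called ribosome biogenesis genes at 96 h. For these differences the cause was not tested.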
